A study of Sus scrofa with 12 samples.

Results

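Predicted PIWI-interacting RNAs (piRNAs) found in every library of a small RNA study of pig intestine numbered 229, of 3433 predicted piRNA identifiers in all and 5850 named small RNAs. They were selected on the deposited counts, as the identifiers beginning with novel_pir with a count of 1 or more in all 12 libraries, so that their presence in each library is the rule and not a result. The tissue came from pigs labelled as the Big white breed (Large White). The labels put 3 libraries in each of 4 groups: piglets past 21 days of age that still fed from the sow, and piglets that had been weaned after that age, 1, 3 or 7 days earlier. The sources used here do not give the age of the feeding piglets at sampling, the segment of intestine, the sex or the litter. The labels do not say that the 3 libraries of a group came from separate animals, so each p-value measures only the spread between these libraries.

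piRNAs are small RNAs bound by PIWI proteins, a branch of the Argonaute family separate from the one that carries microRNAs. They are best known from the animal germ line, where they silence transposable elements, and many are cut from long single-stranded precursors transcribed from clusters in the genome. A predicted piRNA is a name given to sequenced reads by a prediction step, and binding to a PIWI protein was not analysed here. The files pair these identifiers with no sequence, genome position or gene, so each is described by its number and its levels only.

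Depth was even, at 24670093 to 27784417 counts per library, of which 10453953 to 21031457 fell on named small RNAs. The rest, 19.96% to 62.2% of a library, was listed as exon, intron and intergenic totals. The 5 gut epithelium microRNAs (forms of miR-192, miR-194 and miR-215) summed to 54238 to 481570 normalised CPM (counts scaled by library size) per library, so the defining microRNAs of the labelled tissue were present. Of 5 germ line and gonad microRNAs, 3 were listed, and they summed to 0.176 to 8.502 normalised CPM. Of these, miR-34c ran from 0.118 CPM in replicate 1 of day 7 to 8.502 CPM in replicate 3 of day 7. Levels of miR-202-5p were 0 to 0.161 CPM, and miR-202-3p was at 0 in 10 of the 12 libraries.

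Most predicted piRNAs were found in few libraries, while the members carried most of the counts. Of the 3433 identifiers, 1669 were listed in 1 library only and held 1.86% of all predicted piRNA counts. The 229 members were 6.67% of the identifiers and held 60.0% of the counts. A further 167 identifiers were listed in 11 of the 12 libraries and held 26.1% of the counts. No predicted piRNA was listed with a count under 10 in any library, so a count of 1 or more and a count of 10 or more choose the same 229. An identifier missing from a list may therefore have had fewer than 10 counts, and it was entered as 0.

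One library set much of the boundary of the rule. Of the 167 identifiers missing from a single library, 106 were missing from replicate 1 of day 7. In each of the other 11 libraries 0 to 19 were missing, and 335 identifiers would qualify without that library. The same library listed 616 predicted piRNAs found nowhere else, against 5 to 543 in each of the others.

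Just inside the rule, novel_pir593 had a lowest count of 10, a median of 18 and a highest count of 33. Another, novel_pir2610, had a lowest count of 10, a median of 21.5 and a highest count of 37. In all, 25 members had a lowest count of 10 and 138 had a lowest count under 30, while 34 had at least 100 counts in every library. Just outside, the most abundant excluded identifiers were not rare RNAs. The first, novel_pir682, had 6479, 7086 and 13206 counts in feeding libraries, 13924, 11210 and 14362 after 1 day, 5378, 8579 and 14730 after 3 days, and 0, 8886 and 10525 after 7 days. The second, novel_pir684, had 4702 to 11441 counts in 11 libraries and was missing from replicate 1 of day 7.

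The members had 78703, 77473 and 83724 counts in feeding libraries, 77772, 78846 and 67593 after 1 day, 174589, 115542 and 91107 after 3 days, and 196835, 143002 and 151744 after 7 days. As a share of all counts of a library this was 0.296%, 0.289% and 0.319% in feeding libraries and 0.282%, 0.284% and 0.255% after 1 day. It was 0.664%, 0.431% and 0.342% after 3 days and 0.712%, 0.580% and 0.593% after 7 days. Feeding and day 1 libraries lay close together, all 3 libraries weaned for 7 days lay above them, and the libraries weaned for 3 days reached from just above feeding into the range of day 7.

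**Figure D1:**
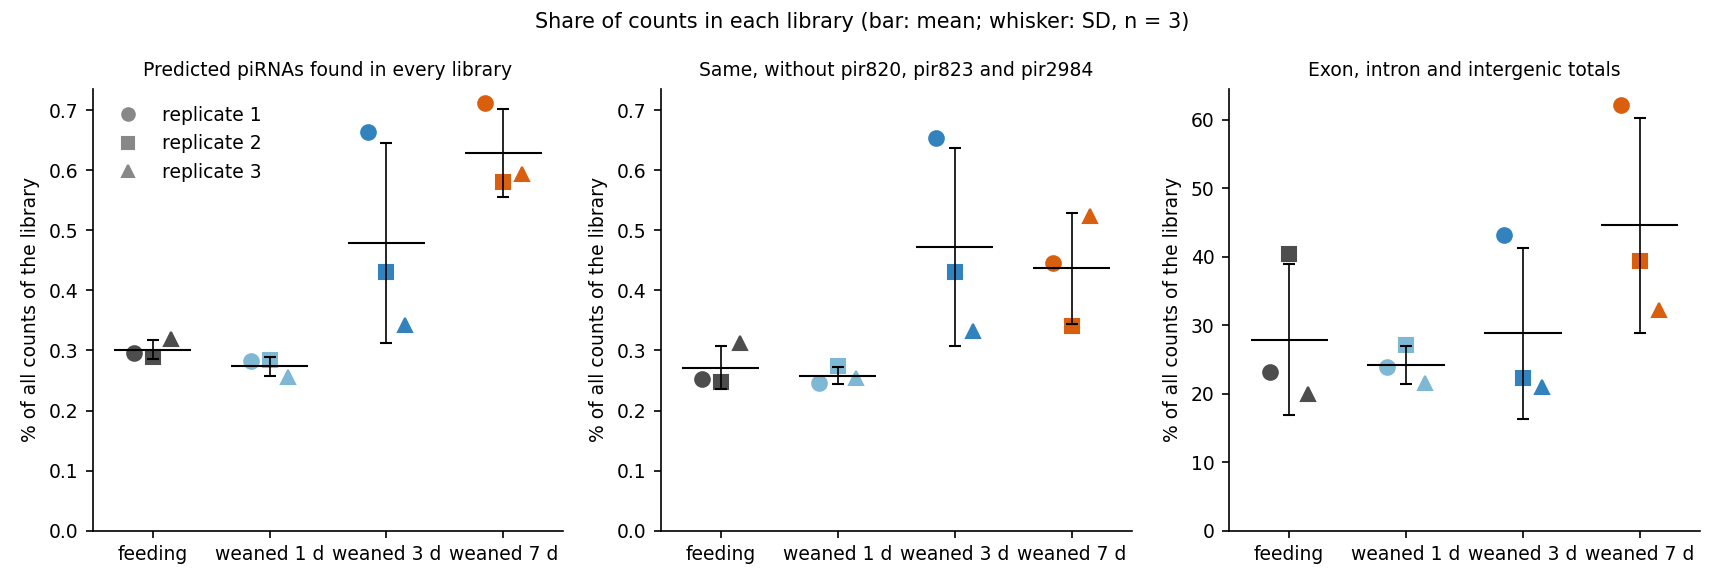
Share of all counts of each library, in percent, held by the 229 members (left), by the members without novel_pir820, novel_pir823 and novel_pir2984 (middle), and by the exon, intron and intergenic totals (right). Points are libraries, bars are group means and whiskers are SD (n = 3). In the left panel the libraries weaned for 7 days lie at 0.580% to 0.712%, above the feeding libraries at 0.289% to 0.319%.

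The members held 0.301% ± 0.0157 of all counts in feeding libraries, 0.274% ± 0.0159 after 1 day, 0.479% ± 0.166 after 3 days and 0.628% ± 0.0730 after 7 days (SD, n = 3 each). The ratio to feeding was 0.908 after 1 day, 1.59 after 3 days and 2.08 after 7 days. In each pair with feeding the groups did not overlap, and the exact permutation test gave p = 0.1 (two-sided, 0.12 adjusted over the 6 pairs of groups), the smallest p that 3 libraries against 3 allow. The same held for 3 days against 1 day and for 7 days against 1 day. Only 7 days against 3 days overlapped (exact p = 0.3, adjusted p = 0.3). With groups of this size the exact permutation test cannot reach a threshold of 0.05. The difference of 0.327 percentage points for 7 days against feeding was larger than the range within either group. That of 0.178 for 3 days was smaller than the range of the day 3 libraries, and came to 0.0853 without replicate 1 of day 3. That of -0.0278 for 1 day was smaller than the range of the feeding libraries. When membership required a count of 30, which left 91 members, 7 days and feeding overlapped, at 0.263% to 0.448% and 0.194% to 0.281%, with a difference of 0.146 points.

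The denominator mattered for the earlier times. As a share of named small RNAs the members held 1.24% ± 0.560 after 7 days and 0.423% ± 0.0543 in feeding libraries (SD, n = 3 each), still without overlap (exact p = 0.1, adjusted p = 0.2). With that denominator, 3 days and 1 day each overlapped with feeding (exact p = 0.2, adjusted p = 0.24). The exon, intron and intergenic totals followed the share in part. They took 23.2%, 40.4% and 19.96% of feeding libraries, 23.9%, 27.2% and 21.6% after 1 day, 43.2%, 22.2% and 21.0% after 3 days, and 62.2%, 39.4% and 32.2% after 7 days. The totals were highest on average after 7 days, at 44.6%, while after 3 days they averaged 28.8%, against 27.9% in feeding libraries, with overlap. Replicate 2 of feeding had the highest total of its group and the lowest member share. The gut epithelium microRNAs summed to 221100 to 481570 normalised CPM in feeding libraries, 130430 to 231650 after 1 day, 269840 to 327160 after 3 days and 54238 to 98280 after 7 days. These sums were lowest after 7 days, and after 3 days they lay within the feeding range. Singly, miR-215 lay below feeding after 3 days, at 1600 to 2011 CPM against 2864 to 5098. For miR-194a, replicate 2 of day 3 lay above feeding, and the other markers of day 3 lay within its range. In replicate 1 of day 7, miR-215 was at 5.94 CPM and miR-194b-5p at 1648, with miR-192 at 52121. The part of the totals or of these microRNAs in the member share was not tested. In bulk tissue, fewer cells of a type and less RNA per cell cannot be told apart.

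Of the predicted piRNA counts, the members held 57.6% ± 3.69 in feeding libraries, 55.9% ± 1.25 after 1 day, 67.1% ± 6.87 after 3 days and 58.6% ± 6.91 after 7 days (SD, n = 3 each). Each weaned group overlapped with feeding. The groups weaned for 3 days and for 1 day did not overlap, at 60.1% to 73.9% and 54.6% to 57.0%, and this difference was not tested.

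Member counts were concentrated on few identifiers, to a degree that differed between libraries. The 10 highest within a library held from 45.5% of its member counts, in replicate 1 of day 3, to 76.2%, in replicate 2 of day 3. Over all 12 libraries, novel_pir3234 held 17.4% of the member counts and the 10 members of highest mean level held 52.5%. It took 2 to 13 members to reach 50% of a library's member counts and 37 to 100 to reach 90%. Mean levels ran from 1.01 to 1086 normalised CPM, with a median of 5.85 and quartiles of 3.30 and 19.4. Only 12 members averaged 100 CPM or more, and 150 averaged less than 10.

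The first member was the same in most libraries and not in all. In 9 of the 12 libraries novel_pir3234 ranked first. In replicate 2 of day 7, with 40.7% of the member counts, and in replicate 2 of feeding, with 14.2%, novel_pir823 ranked first. In replicate 1 of day 7 novel_pir820 ranked first with 26.3%, followed by novel_pir2984 with 11.02%.

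**Figure D2:**
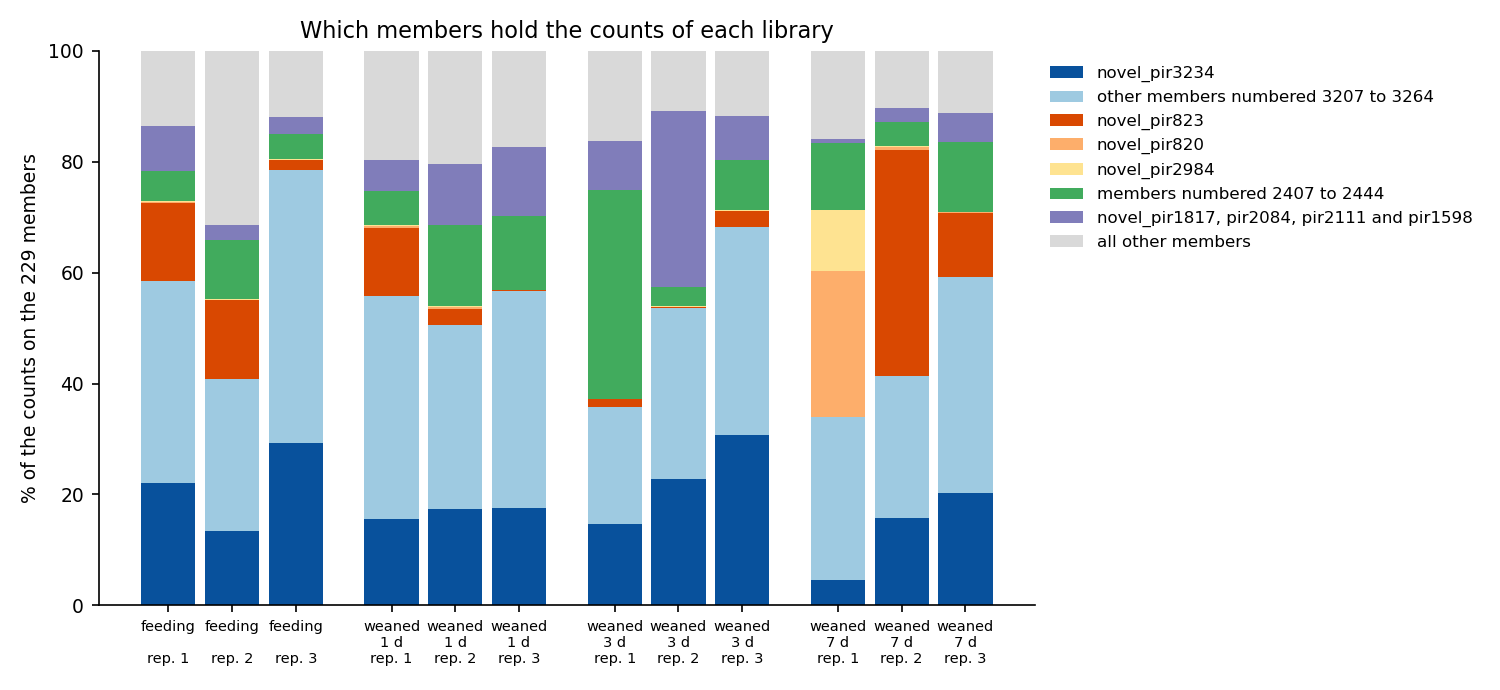
Percent of each library's member counts held by named members and by 2 stretches of neighbouring identifier numbers; each bar is 1 library and adds up to 100%. The pair of blue segments (novel_pir3234 and its neighbours) is present throughout, while novel_pir823, novel_pir820 and the stretch 2407 to 2444 take their largest shares in single libraries, at 40.7%, 26.3% and 37.6%.

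Dominance by the leading members did not separate the groups. The 10 members of highest mean level held 55.4% ± 9.39 of the member counts in feeding libraries, 48.8% ± 3.01 after 1 day, 52.1% ± 15.4 after 3 days and 56.8% ± 11.7 after 7 days (SD, n = 3 each). All 6 pairs of groups overlapped, and exact permutation p-values ran from 0.4 to 0.9 (adjusted p = 0.9 in each pair). When the 10 were chosen anew in each library, the groups weaned for 7 days and for 1 day did not overlap, at 66.4% ± 7.94 and 52.2% ± 3.42 (exact p = 0.1, adjusted p = 0.6).

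The most abundant member, novel_pir3234, had 1166, 684 and 1176 normalised CPM in feeding libraries and 640, 636 and 633 after 1 day. It had 1789, 1675 and 1462 after 3 days and 538, 1357 and 1277 after 7 days. Its day 1 libraries were close to each other and below all others except replicate 1 of day 7. The next in the same stretch of numbers, novel_pir3252, had 312, 180 and 249 CPM in feeding libraries, 158, 173 and 157 after 1 day, 504, 445 and 386 after 3 days, and 1050, 365 and 285 after 7 days.

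The highest library was 3.33 times the lowest for novel_pir3234 and 6.69 times for novel_pir3252. Of the leading members with close numbers, novel_pir3245 ran from 205 to 591 CPM (2.89 times) and novel_pir3244 from 79.0 to 217 CPM (2.75 times). Levels of novel_pir3248 ran from 87.5 to 346 CPM (3.96 times), with the highest in replicate 1 of day 7. That library was the lowest for novel_pir3231, at 12.1 CPM against 90.1 to 148 in the other 11. Among all members the smallest ratio of the highest to the lowest library, 1.90, belonged to novel_pir3237, which ranked 14 by mean level.

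Among the leading members, novel_pir820 and novel_pir823 had the widest ranges. In counts, novel_pir823 had 11168, 11026 and 1589 in feeding libraries, 9549, 2347 and 124 after 1 day, 2533, 227 and 2606 after 3 days, and 19, 58240 and 17605 after 7 days. Its highest and its lowest library were both in the group weaned for 7 days. The close number novel_pir820 had 127, 75 and 47 counts in feeding libraries, 228, 252 and 21 after 1 day, 71, 12 and 38 after 3 days, and 51826, 767 and 134 after 7 days. In replicate 1 of day 7, where novel_pir823 was lowest, novel_pir820 was highest.

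The same library was the highest for novel_pir2984, with 21687 counts, against 38 to 119 in the other 11. It was also the highest for novel_pir687, with 6199 counts against 15 to 56, while novel_pir682 and novel_pir684, with numbers close to novel_pir687, were missing there. These last identifiers were singled out after their values were seen.

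**Figure D3:**
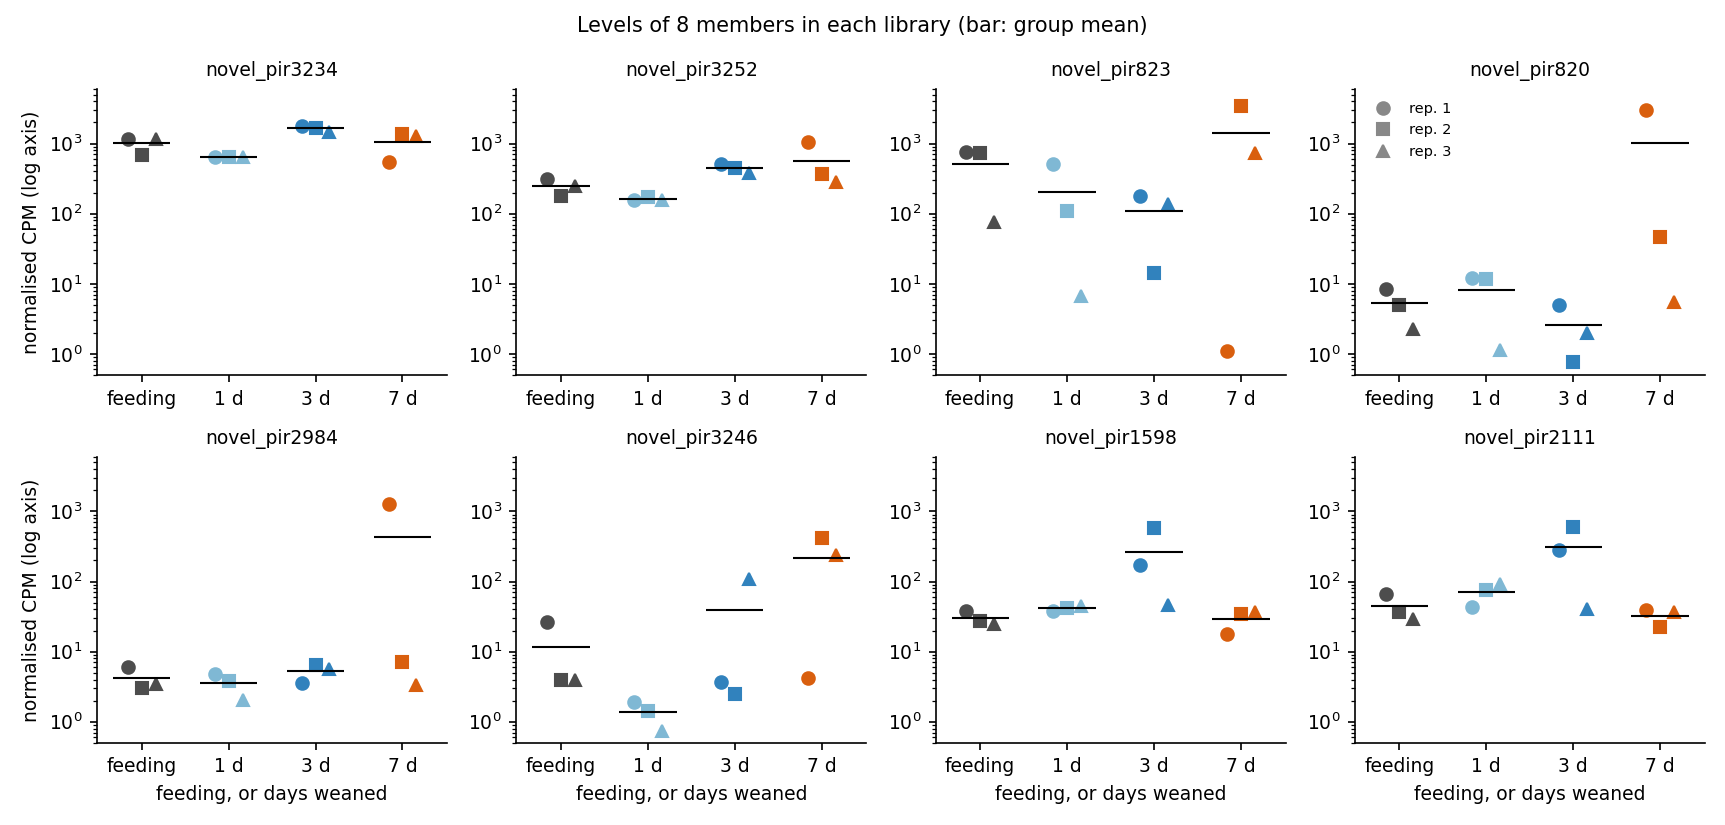
Normalised CPM (log axis) of 8 members in each library, by feeding or days weaned; points are libraries and bars are group means. The levels of novel_pir3234 stay between 538 and 1789 CPM, while novel_pir820 and novel_pir2984 each have 1 library far above the rest.

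The other leading members, novel_pir1817 and novel_pir2084, were highest in 2 libraries weaned for 3 days. The first had 195, 35.4 and 27.2 CPM in feeding libraries, 65.5, 163 and 148 after 1 day, 323, 645 and 240 after 3 days, and 24.9, 136 and 166 after 7 days. All 3 libraries of day 3 lay above every other library. The second had 306, 515 and 43.8 CPM after 3 days and 8.0 to 165 in the other groups. For novel_pir2084, replicate 3 of day 3 thus lay within the range of the other groups.

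Levels of most members differed several-fold between libraries, and they varied within groups too. The median ratio of the highest to the lowest library was 17.4, with 23 members under 4 and 8 over 100. The median coefficient of variation within a group was 58.3% in feeding libraries, 30.1% after 1 day, 66.8% after 3 days and 60.9% after 7 days. In 43 members at least 1 library exceeded 10 times the member's own median, 17 of them in replicate 1 of day 3 and 17 in replicate 1 of day 7.

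High levels gathered in a few libraries. Replicate 1 of day 3 was the highest library for 83 members, replicate 1 of day 7 for 53 and replicate 2 of feeding for 36. These 3 libraries also listed the most predicted piRNAs, at 1832, 1632 and 1297, against 652 to 1111 in the other 9. They had the highest exon, intron and intergenic shares, at 43.2%, 62.2% and 40.4%, against 19.96% to 39.4% in the other 9. The part of these shares in the member levels was not tested. Replicate 3 of feeding was the lowest library for 66 members and replicate 1 of day 7 for 45.

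Members with close identifier numbers were mostly highest in the same library in some runs of numbers, and not in others. What the numbering follows is not given in the sources used here. The members fell into 53 runs in which neighbouring numbers were at most 10 apart, and 14 runs of 5 or more members held 167 of the 229. A number directly next to that of another member was found for 146 members.

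The run from 3207 to 3264 held 32 members, novel_pir3234 among them, and 49.9% of all member counts. The run had no common highest library, with 13 members highest in replicate 1 of day 7 and 7 in replicate 3. Its summed level varied least between libraries among the runs of 5 or more members, with a ratio of 2.34 between the highest and the lowest, against 3.16 to 219 in the others. It came to 3094, 2075 and 3142 CPM in feeding libraries, 2286, 1849 and 2048 after 1 day, 4331, 3942 and 3248 after 3 days, and 3922, 3548 and 3743 after 7 days. All 6 libraries of days 3 and 7 lay above all 6 libraries of feeding and day 1 on this scale. As a share of all counts they overlapped, at 0.231% to 0.351% on days 3 and 7, against 0.118% to 0.2502% in feeding and day 1 libraries, where replicate 3 of feeding was the highest.

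The run from 2407 to 2444 held 29 members and 12.7% of the counts. Replicate 1 of day 3 was the highest library for 25 of the 29, and the summed level there was 4562 CPM, against 185 to 1408 in the other 11 libraries. In the run from 1444 to 1499, 18 of 26 members were highest in replicate 1 of day 3 and the other 8 in replicate 1 of day 7. All 8 members of the run from 104 to 111 were highest in replicate 2 of feeding, as were 6 of 8 in the run from 1418 to 1426. The run from 815 to 827, with novel_pir820 and novel_pir823, held 7 members and 13.6% of the counts. Of these 7, 4 were highest in replicate 2 of day 7, 2 in replicate 2 of feeding and 1 in replicate 1 of day 7.

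**Figure D4:**
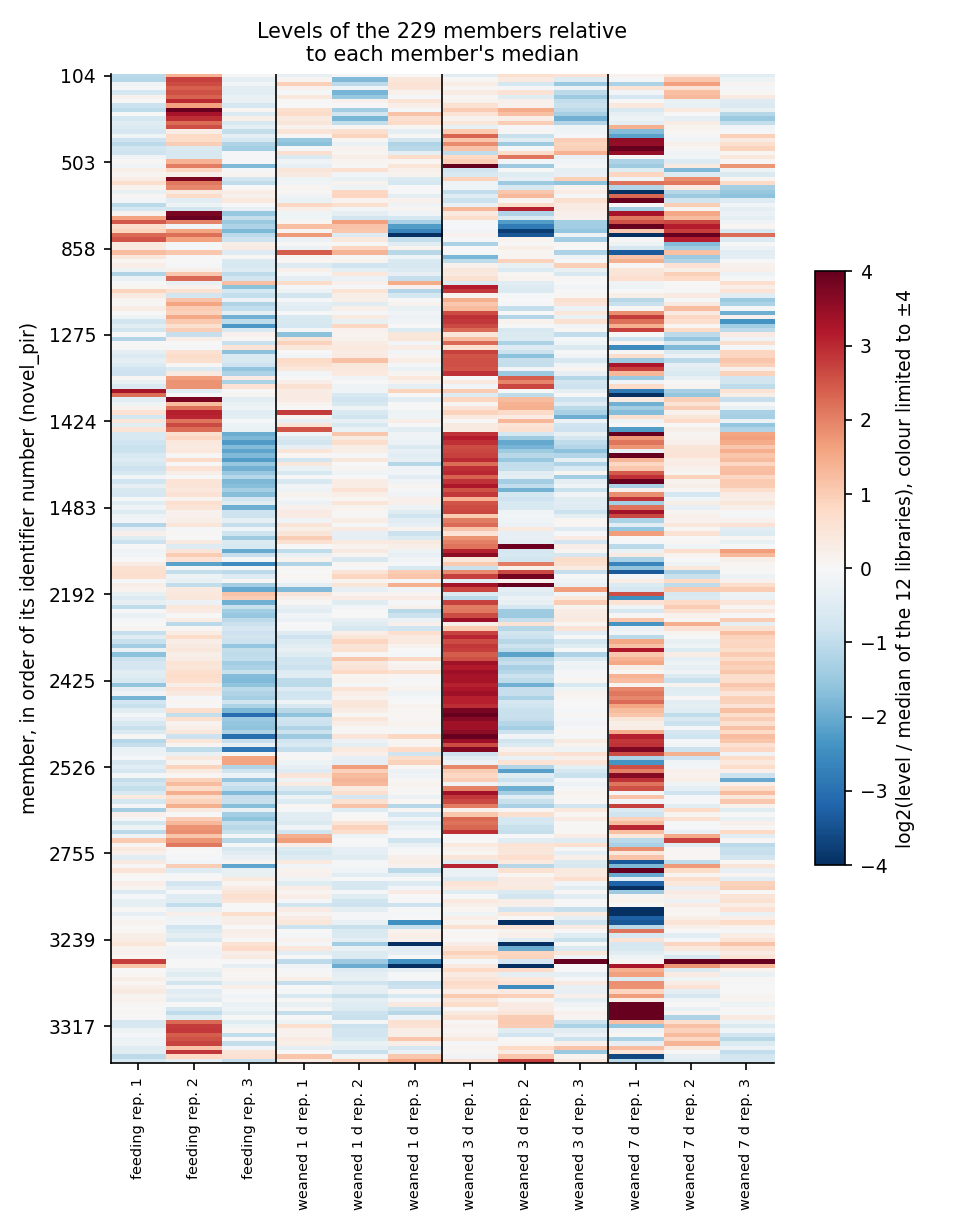
Level of each of the 229 members in each library as log2 of its ratio to the member's median over the 12 libraries, with members in order of identifier number and libraries from feeding to 7 days weaned. Some blocks of neighbouring numbers share 1 red library: replicate 1 of day 3 across 2407 to 2444, and replicate 2 of feeding across 104 to 111.

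All 229 members passed the filter on low counts and were tested with the other small RNAs, 2453 in all, by edgeR's quasi-likelihood test with Benjamini-Hochberg adjustment over the 2453. No member passed an adjusted p of 0.05 in any of the 6 pairs of groups or in the test among the 4 groups. Of all small RNAs tested, 0.0408% passed for 7 days against feeding and 0% in the other pairs and among the groups. The smallest adjusted p of a member was 0.441, for 7 days against 1 day, and among the groups it was 0.366, which novel_pir820 and novel_pir1598, of smallest p, had in common with novel_pir2984. The biological coefficient of variation of the fit was 129% over all small RNAs tested, and 61.97% in a fit of the small RNAs listed in all 12 libraries, which also called no member.

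Counts at an unadjusted p under 0.05 were as follows, beside the share of all small RNAs tested. Against feeding, 4 of 229 members passed for 1 day (background 3.02%), 24 for 3 days (background 5.91%) and 26 for 7 days (background 9.91%). For 3 days against 1 day 16 members passed (background 4.81%), for 7 days against 1 day 22 (background 10.1%) and for 7 days against 3 days 22 (background 7.38%). Among the 4 groups 24 passed (background 7.13%).

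DESeq2's adjusted p called a few members in each test except that of 1 day against feeding. It called 0 of the members for 1 day against feeding (1.15% of all small RNAs given an adjusted p), 4 for 3 days against feeding (1.45%) and 1 for 7 days against feeding (2.19%). It called 4 for 3 days against 1 day (1.2%), 5 for 7 days against 1 day (3.09%), 4 for 7 days against 3 days (0.864%) and 7 among the groups (2.96%). Both for 3 days against feeding and for 7 days against 3 days these were novel_pir793, novel_pir1598, novel_pir2111 and novel_pir2163. For 7 days against feeding it was novel_pir196. For 3 days against 1 day they were novel_pir1598, novel_pir3234, novel_pir3244 and novel_pir3246. For 7 days against 1 day they were novel_pir196, novel_pir3221, novel_pir3246, novel_pir3247 and novel_pir3252. Among the groups they were novel_pir196, novel_pir793, novel_pir1598, novel_pir2111, novel_pir2163, novel_pir3244 and novel_pir3246. limma called 0 members in each of these tests. Of all small RNAs it called 0% for 1 and 3 days against feeding, 0.0815% for 7 days against feeding, 0.0408% for 3 days against 1 day, 0.285% in both other pairs and 0.122% among the groups. Without a filter on low counts, edgeR called 1 member for 1 day against feeding (0.393% of all 5850), 9 for 3 days (0.957%) and 10 for 7 days (2.5%). It then called 4 for 3 days against 1 day (0.803%), 9 for 7 days against 1 day (2.55%), 14 for 7 days against 3 days (2.17%) and 26 among the groups (4.67%).

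After 1 day, 5 members were above all feeding libraries in all 3 libraries (background 5.5% of all small RNAs tested) and 6 were below (background 2.32%). After 3 days, 16 lay above (background 3.91%) and 2 below (background 2.85%). After 7 days, 11 lay above (background 8.68%) and 6 below (background 4.53%). Between weaned groups, 22 members were above and 6 below for 3 days against 1 day (background 4.32% and 5.46%), 26 and 15 for 7 days against 1 day (background 10.8% and 9.25%), and 5 and 12 for 7 days against 3 days (background 5.01% and 4.32%).

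The median log2 difference of the 229 members for 1 day against feeding was -0.01, beside 0.0 over all small RNAs tested. Of the members 109 had a positive and 120 a negative value, and of all 2453 tested 1222 had a positive one. For that pair the members' split moved to 133 positive and 96 negative without normalisation factors and to 84 positive and 145 negative with DESeq2 size factors. Without replicate 2 of feeding the median for that pair was 0.32, with 148 positive and 81 negative. For 3 days against feeding the members' median was 0.48 (0.24 over all tested), with 155 positive and 74 negative (1457 of all 2453 positive). For 7 days against feeding it was 0.41 (0.32 over all tested), with 147 positive and 82 negative (1434 of all 2453 positive). Without replicate 3 of feeding it was 0.20 (0.46 over all tested), and without replicate 2 of feeding 0.66 (0.71 over all tested). A further fit held only the small RNAs listed in all 12 libraries, as the members are by rule, and tested 898. There the members' median for 1 day against feeding was -0.14, beside -0.04 over all 898. For 3 days it was 0.43, beside 0.04, and for 7 days 0.41, beside 0.08. All 3 pairs share the feeding libraries.

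The medians of day 3 changed sign with a single library. Without replicate 1 of day 3 the members' median for 3 days against feeding was -0.25, with 80 of 229 positive. Over all tested it was 0.0, with 1283 of 2835 positive. For 3 days against 1 day the members' median was 0.69 with all libraries (0.25 over all tested). Without that library it was -0.17 (0.0 over all tested). For 7 days against 3 days it was -0.22 with all libraries (0.0 over all tested) and 0.64 without that library (0.35 over all tested). For 7 days against 1 day it was 0.50 (0.35 over all tested), and 0.27 without replicate 1 of day 7 (0.20 over all tested). The other 973 predicted piRNAs tested had medians of 0.0 for 1 day, 0.61 for 3 days and 0.90 for 7 days against feeding. Each of these was missing from at least 1 library, where it was entered as 0, and passed the filter on the libraries that listed it. Replicates 1 of day 3 and of day 7 listed 1832 and 1632 predicted piRNAs, against 652, 1297 and 660 in feeding libraries. Their medians are therefore not a like comparison with those of the members. Known microRNAs had medians of 0.17 for 1 day, -0.05 for 3 days and -0.24 for 7 days. Predicted microRNAs had 0.15, 0.22 and 0.30 in the same order, and families of noncoding RNA (Rfam) had 0.07, 0.13 and 0.65.

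**Figure D5:**
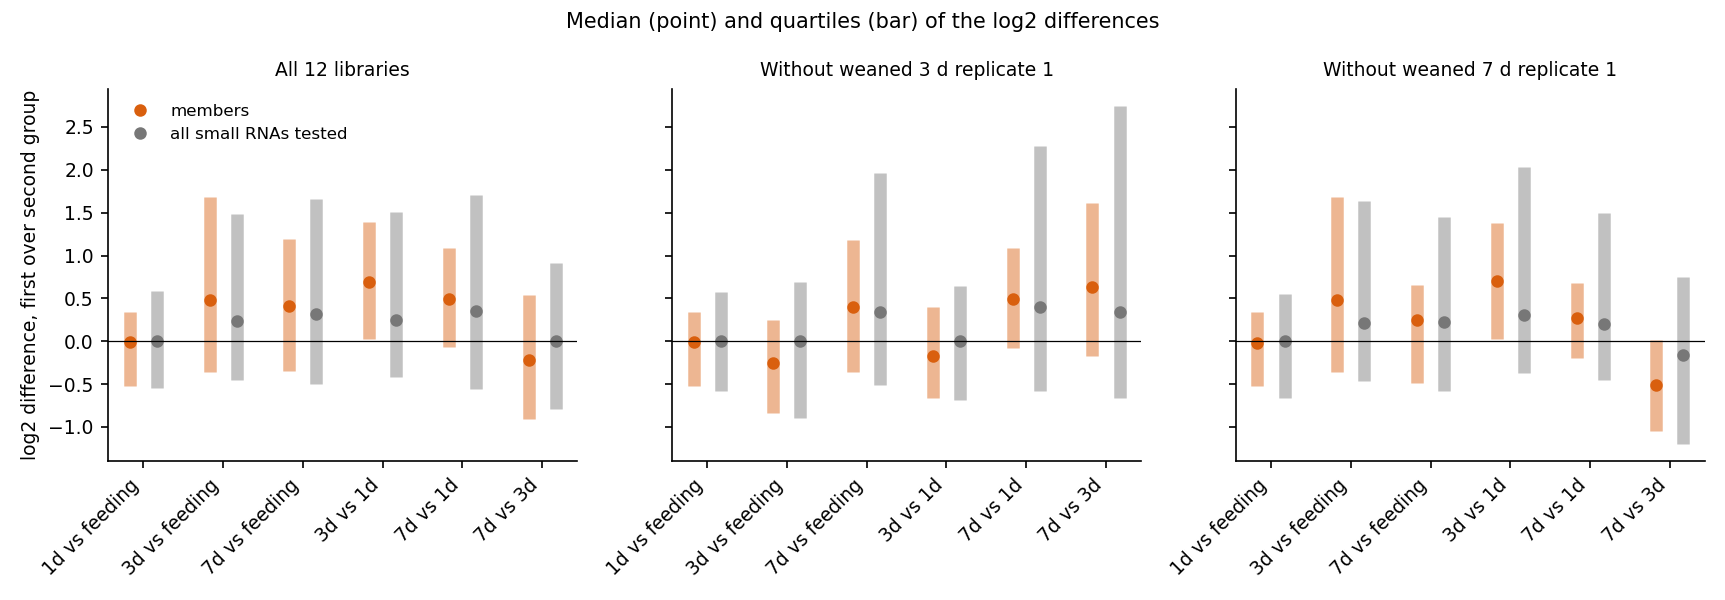
Median (point) and quartiles (bar) of the log2 differences of the 229 members and of all small RNAs tested, for the 6 pairs of groups, from all 12 libraries and without either library that stands apart. The members' median for 3 days against feeding is 0.48 with all libraries and -0.25 without replicate 1 of day 3.

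The 2 members of smallest p in each direction were described for each pair of groups, and none passed edgeR's adjusted threshold. After 1 day, novel_pir3386 had 2.9, 4.5 and 7.1 CPM, against 1.5, 1.8 and 1.2 CPM in feeding libraries, without overlap (log2 difference 1.64 ± 0.75 SE, edgeR adjusted p = 0.847). The second on the higher side, novel_pir2163, averaged 2.93 ± 1.78 CPM after 1 day and 1.26 ± 0.777 CPM in feeding libraries (SD, n = 3 each). On the lower side, novel_pir818 and novel_pir600 each stood high in a single feeding library. The log2 difference of novel_pir818 was -3.17 ± 1.12 (SE, edgeR adjusted p = 0.847) and -1.37 without replicate 2 of feeding. That of novel_pir600 was -2.70 ± 1.15 (SE, edgeR adjusted p = 0.847) and -0.28 without that library.

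After 3 days, novel_pir1598 had 173, 584 and 46.2 CPM, against 38.3, 27.0 and 25.1 CPM in feeding libraries. The groups did not overlap, and the log2 difference was 3.15 ± 0.76 (SE, edgeR adjusted p = 0.565). Without replicate 2 of day 3 it was 1.86. The next, novel_pir2163, had 18.3, 46.3 and 1.5 CPM after 3 days, against 2.2, 0.9 and 0.7 CPM in feeding libraries, and replicate 3 of day 3 lay within the feeding range. On the lower side, novel_pir819 averaged 3.40 ± 2.54 CPM after 3 days and 21.8 ± 17.5 CPM in feeding libraries, and novel_pir606 averaged 0.913 ± 0.534 and 3.75 ± 3.44 CPM in the same order (SD, n = 3 each). Both pairs of groups overlapped.

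After 7 days, the members of smallest p on the higher side against feeding were novel_pir820 and novel_pir2984. The log2 difference of novel_pir820 was 7.62 ± 2.08 (SE, edgeR adjusted p = 0.470) and 2.30 without replicate 1 of day 7. That of novel_pir2984 was 6.67 ± 1.86 (SE, edgeR adjusted p = 0.470) and 0.32 without that library, so a single library carried it.

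On the lower side, novel_pir2749 averaged 1.27 ± 0.417 CPM after 7 days and 4.87 ± 4.43 CPM in feeding libraries (SD, n = 3 each). Its log2 difference was -1.94 ± 0.74 (SE, edgeR adjusted p = 0.470), and -1.01 without replicate 2 of feeding. The other, novel_pir631, had 0.6, 12.6 and 9.8 CPM after 7 days, against 22.5, 35.7 and 34.1 CPM in feeding libraries. The groups did not overlap, and the log2 difference was -2.002 ± 0.86 (SE, edgeR adjusted p = 0.470), with -2.56 to -1.46 when any 1 library was left out.

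Between day 3 and day 1, the smallest p belonged to novel_pir3234, at 1642 ± 166 CPM after 3 days and 636 ± 3.79 CPM after 1 day (SD, n = 3 each). The log2 difference was 1.37 ± 0.38 (SE, edgeR adjusted p = 0.578), the groups did not overlap, and it stayed between 1.31 and 1.45 when any 1 library was left out. DESeq2 gave it an adjusted p of 0.0207. For novel_pir1598 the log2 difference was 2.68 ± 0.74 (SE, edgeR adjusted p = 0.578), and 1.39 without replicate 2 of day 3. On the lower side, novel_pir1009 averaged 2.83 ± 0.542 CPM after 3 days and 6.56 ± 2.99 CPM after 1 day, and novel_pir873 averaged 10.6 ± 4.46 and 36.9 ± 32.5 CPM in the same order (SD, n = 3 each).

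Between day 7 and day 1, novel_pir3246 had 4.2, 412 and 239 CPM after 7 days, against 1.9, 1.4 and 0.7 CPM after 1 day. The groups did not overlap, the log2 difference was 7.32 ± 1.97 (SE, edgeR adjusted p = 0.441), and it stayed between 6.48 and 7.90 when any 1 library was left out. DESeq2 gave it an adjusted p of 1.203e-05. Outside this pair it had 110 CPM in replicate 3 of day 3 and 26.6 CPM in replicate 1 of feeding, and 2.5 to 4.0 CPM in the other 4 libraries. For novel_pir3252, the log2 difference was 1.80 ± 0.48 (SE, edgeR adjusted p = 0.441), without overlap, and 1.00 without replicate 1 of day 7. On the lower side were novel_pir631 (log2 difference -2.19 ± 0.87) and novel_pir3386 (-1.75 ± 0.76, both SE), each without overlap between the groups and each with an edgeR adjusted p of 0.441.

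Between day 7 and day 3, novel_pir820 and novel_pir2984 were again on the higher side, at log2 differences of 8.66 ± 2.18 and 6.36 ± 1.83 (SE, edgeR adjusted p = 0.553 and 0.632). Without replicate 1 of day 7 they came to 3.33 and 0.0026. On the lower side, novel_pir1598 averaged 29.6 ± 10.3 CPM after 7 days and 267 ± 281 CPM after 3 days, and novel_pir2111 averaged 32.5 ± 8.85 and 306 ± 281 CPM in the same order (SD, n = 3 each). Neither overlapped, with log2 differences of -3.17 ± 0.76 and -3.23 ± 0.80 (SE, edgeR adjusted p = 0.526 and 0.553). Without replicate 2 of day 3 these came to -1.90 and -2.31. Levels of both after 3 days came mainly from replicates 1 and 2.

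The higher member share after 7 days rested in part on few identifiers. Of the difference of 0.327 percentage points between 7 days and feeding, novel_pir823 supplied 22.0%, novel_pir820 19.4% and novel_pir2984 8.005%. Without these 3 members the rest held 0.436% ± 0.0920 of all counts after 7 days and 0.271% ± 0.0361 in feeding libraries (SD, n = 3 each), and the groups still did not overlap, at 0.340% to 0.523% and 0.248% to 0.313%. Among the members, 167 had a higher mean share after 7 days than in feeding libraries and 62 a lower one. The median over all small RNAs tested, each counted once whatever its level, was higher too on the scale of all counts. The summed share of named small RNAs was not, as exon, intron and intergenic totals averaged 44.6% after 7 days and 27.9% in feeding libraries. These totals overlapped between the 2 groups. Without normalisation factors the median log2 difference was 0.67 for the members and 0.55 over all tested. For 3 days against feeding, novel_pir3234 supplied 19.4% of the difference, novel_pir1817 10.8% and novel_pir2111 8.47%.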

How the data were processed

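Small RNA libraries of pig intestine were read from 1 deposited table that gives, per the file headers, a count and a TPM value for each small RNA of each library. The deposited counts are whole numbers. The deposited TPM equalled the CPM of the library's own list within 0.005, with no length term, and was not tested. Per the submitters' processing notes the genome build was Sscrofa 11.1. The aligner, the counting step and the piRNA predictor were not given in the sources used here. Missing entries were set to 0. Exon, intron and intergenic totals (19.96% to 62.2% of a library) did not enter the tests, since they name no small RNA. PCR copies cannot be told apart, so depth limits counting error only.

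edgeR 4.0.16 (R 4.3.3) was fitted to the counts of all 12 libraries: filterByExpr (minimum count 10, minimum total 15), TMM factors, 4 group means, the quasi-likelihood test (two-sided) and Benjamini-Hochberg adjustment within each test. Normalised CPM uses the TMM factors. Shares were compared by exact permutation of the 20 relabelings. DESeq2 1.42.0, limma 3.58.1 (prior count 0.5), DESeq2 size factors, no factors, no filter, 2 groups only and leaving out each library were alternatives. The code of the fit was run on simulated counts with a smaller spread between libraries than the fit found here. That run therefore does not measure power or false calls in these data. Replicate numbers follow the order of the labels and pair nothing.

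The members and the lists were chosen with earlier results of these data known. Identifiers named are the 10 of highest mean level, the 2 of smallest p in each direction per pair of groups, the 2 of smallest p among the groups, and 2 on each side of the rule. Other lists were microRNAs of epithelium (1 of 5 listed, 1354 to 8103 CPM summed), smooth muscle (5 of 5, 30111 to 204980), red blood cells (3 of 3, 1346 to 4242) and leukocytes (4 of 5, 2492 to 9780). The smooth muscle maximum came from replicate 1 of day 1. There miR-143-3p was at 200270 CPM, against 28155 to 46120 in the other libraries. A list of RNA fragment families could not be matched, because the files give family identifiers without names.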

Additional observations from a re-analysis of the deposited data

How the results depend on the processing

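Alternatives are those under "How the data were processed", and 4 were added after seeing the data: a minimum count of 30 (91 members), identifiers of the other 11 libraries, only small RNAs listed in all 12 libraries, and leaving out novel_pir820, novel_pir823 and novel_pir2984. No paired analysis was possible because the labels give no number shared between groups, and the replicate numbers used here only follow the order of the labels. edgeR called 0 members in every pair under each other normalisation, the fits of 2 groups only, small RNAs of all 12 libraries, and without any 1 library (0 to 0). Without a filter it called 1, 9 and 10 for 1, 3 and 7 days against feeding, 4 for 3 days against 1, 9 and 14 for 7 days against 1 and 3, and 26 among the groups. DESeq2 called 4 and 1 for 3 and 7 days against feeding, 4 for 3 days against 1, 5 and 4 for 7 days against 1 and 3, and 7 among the groups, with 15 members given no adjusted p. Without 1 library the members' median ranged from -0.14 to 0.32 for 1 day against feeding, 0.20 to 0.66 for 7 days against feeding, -0.25 to 0.72 for 3 days against feeding, -0.17 to 0.87 for 3 days against 1 and -0.51 to 0.64 for 7 days against 3, with both lowest values of day 3 and the highest of 7 days against 3 found without replicate 1 of day 3. Scaling without factors moved the median of all small RNAs for 7 days against feeding to 0.55, and the members' to 0.67. It left 151 members positive and 78 negative for 3 days against 1, and 117 and 112 for 7 days against 3 (174 and 55, 92 and 137 with TMM factors). With TMM factors 1461 and 1206 of all 2453 tested were positive, in the same order. The member share kept its direction under all alternatives except for 7 days against 3, where it turned to -0.0510 percentage points at the minimum of 30 and -0.0354 without the 3 identifiers. At the minimum of 30 the difference for 7 days against feeding was 0.146 and the groups overlapped. Without 1 library the difference from feeding stayed at 0.0853 to 0.246 for 3 days and 0.285 to 0.351 for 7 days. The share of the 10 leading members had no steady direction. For 3 days against feeding it was 3.29 with the 10 chosen per library, 1.33 at the minimum of 30 and -8.64 to 5.599 without 1 library. For 7 days against feeding it was -1.64 at the minimum of 30 and -4.89 to 6.63 without 1 library. For 3 days against 1 it was -0.685 with identifiers of the other 11 libraries and -1.51 to 12.1 without 1 library. For 7 days against 3 it was -2.96 at the minimum of 30 and -4.12 to 9.88 without 1 library. The cause was not tested.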
